A study of Homo sapiens with 4 samples.

Results

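The aminoacyl-tRNA synthetase genes were examined through their skipped exon events, which are exons that some transcripts include and others leave out. Members were the rows of the skipped exon table whose gene symbol was 1 of 37 synthetase symbols, with a mean of at least 20 junction reads over the 4 libraries. A junction read is a read that spans a splice junction, so it shows which exons were joined. The 37 genes had 365 events in the table, of which 345 passed the read minimum, out of 54503 events that passed it in the whole series and 65601 in all. The 345 events described 275 different exons of 35 genes. MARS2 and PARS2, the mitochondrial enzymes for methionine and proline, had no event. Of the 20 events below the minimum, WARS held 6, YARS 3, NARS2 2 and VARS 2, and 7 other genes held 1 each. The events just inside the minimum were 3 of WARS with means of 20, 21 and 21.5 reads, and those just outside were of WARS, NARS2 and YARS with 18.25, 17 and 14.25 reads.

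The cells were HEK293T, an established human embryonic kidney line. In 1 labelled group the cells received a gapmer antisense oligonucleotide (ASO) at 70 nM by lipid transfection. Gapmers are short strands that bring RNase H to cut the RNA they bind, and here the target was SNORD89, a C/D box small nucleolar RNA. The other group was labelled as having no treatment, although its labels carry the same transfection text, and no control ASO is named. Medium was changed after 24 hours and RNA was taken at 48 hours, with 2 biological replicates per group. All cells were of 1 line, so the p-values measure the spread between these cultures only. The columns of the table name the libraries only as a first and a second set of 2. The name of the table puts SNORD89 before the cells with no ASO, but no header or label ties that order to the sets, so it was not used. Directions are given as first set against second set, and library 1 and library 2 are names by place within a set. The level of SNORD89 itself was not analysed here.

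Aminoacyl-tRNA synthetases join each amino acid to its transfer RNA and so set the reading of the genetic code. Most amino acids have a cytosolic and a separate mitochondrial enzyme, both encoded in the nucleus, and the mitochondrial genes usually carry symbols that end in 2, as in TARS2. KARS and GARS each supply both compartments from 1 gene, through different starts of the protein. Several cytosolic enzymes are held in a multi-synthetase complex together with scaffold proteins. Variants in many of these genes cause inherited neurological or mitochondrial disease. Among the cytosolic genes WARS, for tryptophan, is known for several alternative exons at its 5′ end and for induction by interferon.

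Total junction reads ranged from 38613055 to 43929373 per library. The members' events were deep, with medians of 469 to 519 reads per library against 157 to 222 over all tested events. Library 2 of the second set stood apart: 3280 of all 65601 events, tested or not, had no reads in it, against 513 to 624 in the other 3 libraries. Scatter between 2 libraries was taken as the median squared difference in the share of inclusion reads, relative to its binomial expectation. It used only events with enough expected reads of both forms, 20428 to 23555 of all tested events per pair and 124 to 135 of the members. Between that library and each other one the ratio was 7.80 to 7.85 over all such events, and 2.782 to 3.004 among the other 3. For the members these ratios were 5.67 to 6.79 with that library and 2.54 to 4.35 without it. Of the markers of this line, VIM had 1 event with 3859 to 5561 reads, PAX2 had 6 events below the minimum, and LIN28B, NEFM and NEFL had no event. No event was listed for 7 markers of blood and liver cells. A gene without an alternative exon is not listed whatever its expression, so these absences do not show that the genes were silent.

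Exons of the synthetase genes were mostly included in nearly every transcript. The inclusion level is the share of transcripts that hold the exon, from 0 to 1, after division of each form's reads by its effective length. An exon was called alternative where its event with most reads had a mean inclusion level from 0.05 to 0.95 and reads in all 4 libraries. By that measure 32 of 275 member exons (11.6%) in 14 genes were alternative, against 23% of all 43103 tested exons. A mean inclusion level above 0.99 was found for 171 member exons (62.2%), against 40.6% of all tested exons. Every tested event, member or not, had at least 1 skipping read, so exons that were never skipped are not in these shares. Member events were also deeper, with a median of 512.25 reads against 190 over all tested events. A deeper event can be listed at a smaller share of skipping reads, and the part of depth in these shares was not tested. Exon 32 of IARS, the isoleucine enzyme, had 1 skipping read among 11050 junction reads of its event. Exon 8 of FARSA, the catalytic subunit for phenylalanine, had 1 among 10897.

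**Figure D1:**
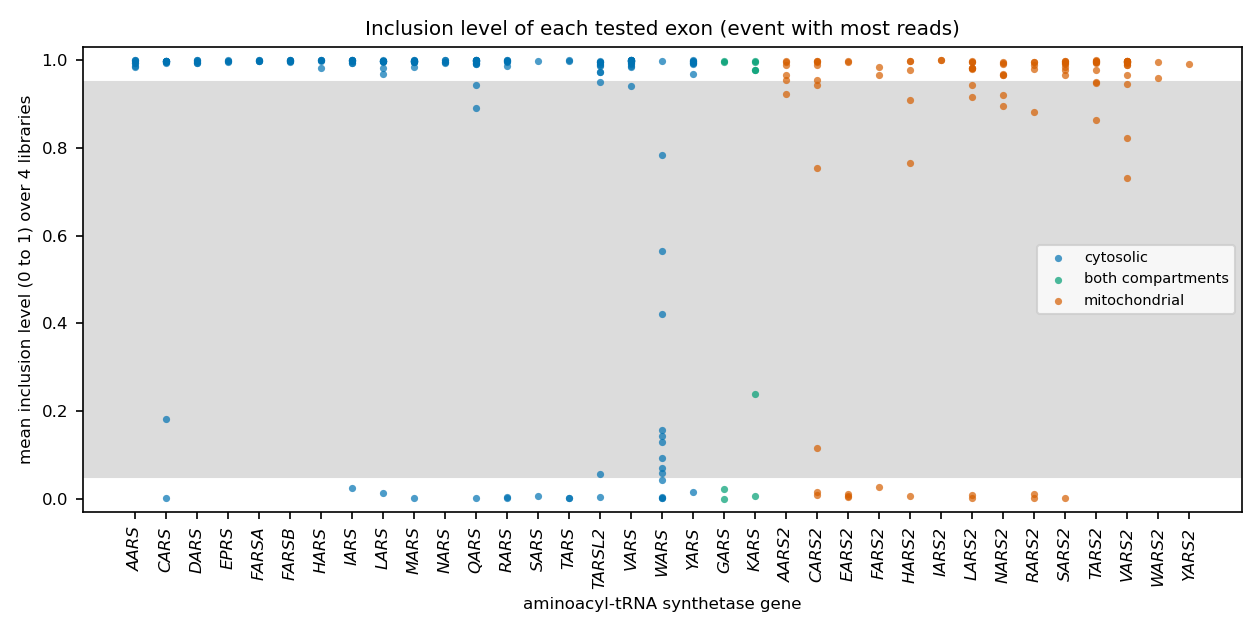
Mean inclusion level over the 4 libraries (vertical axis, 0 to 1) of each of the 275 tested exons, by gene, coloured by the compartment of the enzyme. Grey marks the range from 0.05 to 0.95, where WARS has 9 of the 32 alternative exons.

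The cytosolic and mitochondrial enzymes differed in how many listed exons were alternative. Of 169 cytosolic exons 15 (8.88%) were alternative, and 9 of these belonged to WARS. Without WARS the cytosolic count was 6 of 155 (3.87%). The mitochondrial genes had 16 of 96 (16.7%), in 8 of 14 genes. Among the exons above 0.95 inclusion, skipping reads were a median of 0.114% of the junction reads in 138 cytosolic exons and 0.348% in 68 mitochondrial ones. Mitochondrial events were shallower, with a median of 270.2 reads against 837 for cytosolic ones, and the part of depth in this contrast was not tested. The 8 enzymes of the multi-synthetase complex, EPRS, IARS, LARS, MARS, QARS, RARS, KARS and DARS, had 3 alternative exons among 75, of which 2 were in QARS and 1 in KARS.

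Between the sets, few synthetase events changed. By the authors' deposited table, a false discovery rate (FDR) under 0.05 with a difference in inclusion level of at least 0.1 was reached by 2 of 345 member events (0.58%), against 2.71% of all tested events. Both were exons of WARS and both were lower in the first set, where the background was 1.37% lower and 1.34% higher. At an FDR under 0.05 alone, the authors' deposited table held 10 member events (2.9%), against 5.72% of all. Of these, 5 were higher in the first set (1.45%, background 3.03%) and 5 lower (1.45%, background 2.68%). Counting only alternative events, 2 of 46 passed both thresholds against 11.1% of 13329, and 6 of 46 passed the FDR alone against 14.6%, at median depths of 192.4 reads (members) and 82.75 reads (all). The sets were apart in 64 member events (18.6%), with both levels of 1 set above both of the other, against 22.8% of all. The median absolute difference was 0.004 in the members and 0.011 over all tested events. All 8 member events with a difference of at least 0.1 were in WARS, against a background of 7.19%, and the largest outside it was 0.098.

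The same events were tested with the scatter between libraries as the error, and the result for WARS depended on the model. The quasi-binomial model with limma's moderated dispersion gave 0 member events at an adjusted p under 0.05, with 13 (3.77%) at an unadjusted p under 0.05. Over all tested events it called 0.00367%, which is 2 events, and 2.83% at the unadjusted threshold. The smallest adjusted p of a member was 0.877. limma on log2 ratios (inclusion over skipping) called 0 of all events, with 10 members at an unadjusted p under 0.05 against 4.87% of all. The same ratio with precision weights in limma called 2 members, the WARS exons of 124 nt (adjusted p = 0.0253) and 44 nt (adjusted p = 0.0464), against 0.657% of all events, with 31 members at an unadjusted p under 0.05 against 9.92% of all.

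**Figure D2:**
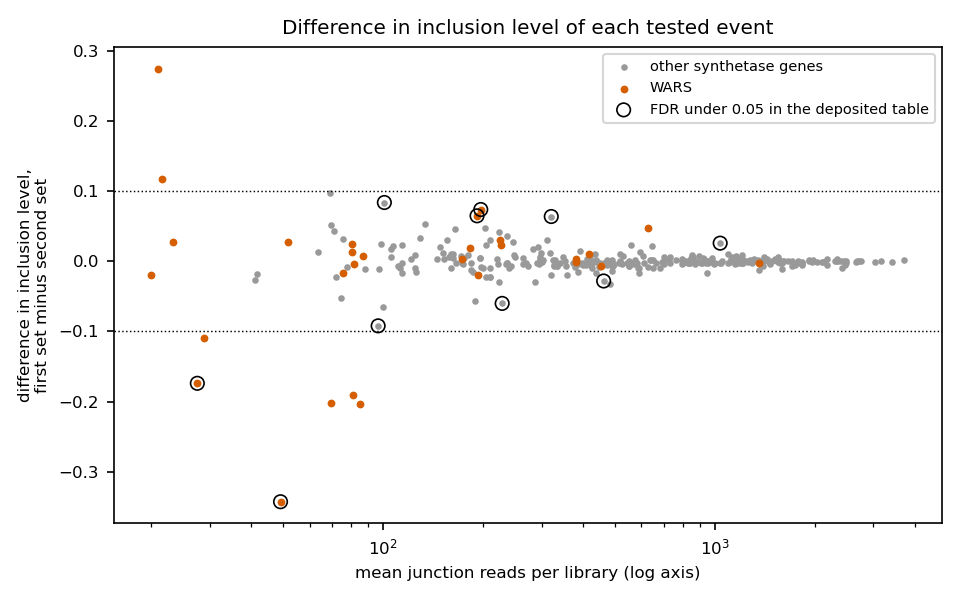
Difference in inclusion level, first set minus second set, of the 345 member events (vertical axis) against mean junction reads per library (log axis). Dotted lines mark 0.1 and -0.1; the 8 points beyond them are WARS events with few reads, and rings mark the 10 events with an FDR under 0.05 in the deposited table.

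In WARS the difference lay in the 5′ untranslated exons. Exon 2 was tested as a skipped exon from 3 upstream splice donors. It is the 172-nt exon at chr14:100835424-100835595 (hg19, minus strand) that holds the first 99 coding bases. Introns of 7001, 6024 and 4877 nt lead from these donors to exon 2. A further exon, of 85 nt, joins exon 2 over an intron of 4721 nt with few reads, and is described with the called events. The middle donor ends an exon known in versions of 68, 121, 124 and 264 nt with 1 shared end at position 100841620, and the near donor ends an exon of 14 to 130 nt with 1 shared end at 100840473. None of these upstream exons codes for protein in the GENCODE release 29 transcripts they matched, so no sequence of them is shown.

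Reads joining the middle donor to exon 2 numbered 35 and 45 (first set) against 11 and 10 (second set). They made up 10.4% and 15.9% of the reads entering exon 2 from these 3 donors in the first set, with 95% Wilson intervals of 7.61% to 14.2% and 12.1% to 20.6%. In the second set they made up 4.68% (2.63% to 8.19%) and 5.03% (2.752% to 9.002%). Both first set libraries were above both second set libraries, and the sets did not overlap. The far donor gave 201 and 184 reads (first set) against 185 and 115 (second set). The near donor gave 99 and 54 reads against 39 and 74, and for both of these donors the shares of the sets overlapped. Intervals here and elsewhere cover counting error only, since the labels name no molecular identifiers.

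The called events rest on those middle donor reads. The 44-nt exon at chr14:100840473-100840516, flanked upstream by the middle donor, had inclusion levels of 0.373 and 0.236 (first set) against 0.646 and 0.649 (second set). Its inclusion reads were 27 and 18 against 26 and 24, and its skipping reads were the 35 and 45 against 11 and 10 already given. The skipping reads separated the sets, while the inclusion reads overlapped. The authors' deposited table lists a difference of -0.343 with an FDR of 0.00212. With the far donor as the upstream flank the same exon had levels of 0.094, 0.070, 0.084 and 0.118, and a deposited difference of -0.019.

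The other called event was an 85-nt exon at chr14:100840317-100840401, with the same skipping reads. It had 0 and 1 inclusion reads (first set) against 1 and 7 (second set). Its inclusion levels were 0.000 (95% interval 0.000 to 0.065) and 0.014 (first set) against 0.055 and 0.308 (second set). The high value was that of library 2 of the second set, the library that stood apart. In the authors' deposited table its difference was -0.174 (FDR 0.00443), and without that library the recomputed difference was -0.0477. With the far donor as flank this exon had 4 inclusion reads among 689.

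Longer versions of the near exon had negative differences too when the middle donor was the flank, but did not pass the FDR threshold. The versions of 85, 109 and 130 nt differed by -0.202, -0.204 and -0.19 in the authors' deposited table, with FDR values of 0.147, 0.103 and 0.238. They share the skipping reads of the 44-nt version and are not separate measurements. Other events of the longer versions had positive differences. With the far donor as flank, at about 225 reads per library, the 109-nt and 130-nt versions differed by 0.024 and 0.03 in the authors' deposited table, and the sets overlapped. The 109-nt version counted against a junction that also passes over exon 2 had 0.486 and 0.447 (first set) against 0.308 and 0.076 (second set), with an FDR of 0.195. Its deposited difference of 0.275 rested on a mean of 21 reads per library, and a 130-nt event with 18.25 reads, under the minimum, had 0.15.

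The middle exon itself was included more in the first set. Its 124-nt version, flanked by the far donor and exon 2, had inclusion levels of 0.087 and 0.127 (first set) against 0.029 and 0.037 (second set). Inclusion reads were 35 and 49 against 10 and 8, and skipping reads 201 and 184 against 185 and 115. The sets did not overlap. In the authors' deposited table the difference was 0.074 with an FDR of 0.000158, and for the 121-nt version 0.065 with an FDR of 0.000161. The 2 versions have the same skipping reads and both use the junction from the middle donor to exon 2, so they are not separate measurements. That junction is also the skipping form of the called events. Exon 2 was itself skipped from the far donor in 27.7% and 27.6% of that donor's reads in the first set and in 26.3% and 42.5% in the second. The value of 42.5% was again from library 2 of the second set. From the middle donor, exon 2 was passed over by 11 and 10 reads against 13 and 7. As shares of that donor's reads these were 23.9% and 18.2% against 54.2% and 41.2%, which did not overlap. The counts themselves overlapped. The shares are taken over totals that hold the reads from the middle donor into exon 2, 35 and 45 against 11 and 10. They are thus not a measurement separate from those reads.

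**Figure D3:**
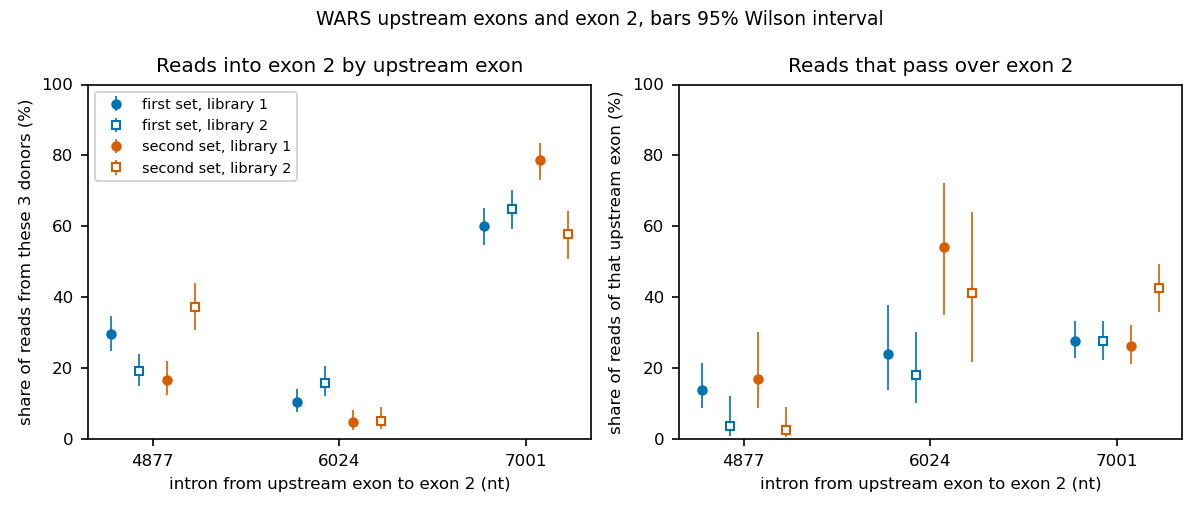
Left, share (percent) of the junction reads entering WARS exon 2 from 3 upstream exons that come from each, named by the intron length to exon 2; the rarely used 4721-nt intron is not counted. Right, share of each upstream exon's reads that pass over exon 2. Points are libraries and bars 95% Wilson intervals. For the 6024-nt donor the sets are apart in both panels (10.4% and 15.9% against 4.68% and 5.03% on the left, 23.9% and 18.2% against 54.2% and 41.2% on the right). Both panels use the same reads from that donor into exon 2, so they are not separate measurements.

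Outside WARS, 6 events in 6 genes had an FDR under 0.05 with differences under 0.1, and they were chosen for description after their values were seen. All 6 were annotated coding exons, 5 of them of mitochondrial enzymes. Their sequences were taken from GENCODE release 29 transcripts and are shown because these are the stretches that a skipping transcript lacks. Capitals mark the last 3 bases of the exon, which form the exonic side of the 5′ splice site.
WARS2 exon 4, 86 nt, chr1:119584887-119584972 (minus strand): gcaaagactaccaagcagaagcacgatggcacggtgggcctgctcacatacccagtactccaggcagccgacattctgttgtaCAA
CARS2 exon 5, 106 nt, chr13:111340068-111340173 (minus strand): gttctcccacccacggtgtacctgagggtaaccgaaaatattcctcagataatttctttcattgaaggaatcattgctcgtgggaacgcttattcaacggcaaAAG
TARS2 exon 9, 99 nt, chr1:150469286-150469384 (plus strand): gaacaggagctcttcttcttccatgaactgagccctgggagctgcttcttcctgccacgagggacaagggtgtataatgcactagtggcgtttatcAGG
AARS2 exon 6, 146 nt, chr6:44274986-44275131 (minus strand): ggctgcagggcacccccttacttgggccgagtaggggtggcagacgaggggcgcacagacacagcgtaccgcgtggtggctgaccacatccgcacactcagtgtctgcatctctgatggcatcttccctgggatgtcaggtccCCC
NARS2 exon 6, 95 nt, chr11:78239888-78239982 (minus strand): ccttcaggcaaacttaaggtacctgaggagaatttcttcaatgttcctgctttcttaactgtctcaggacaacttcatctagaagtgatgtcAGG
HARS exon 3, 120 nt, chr5:140062685-140062804 (minus strand): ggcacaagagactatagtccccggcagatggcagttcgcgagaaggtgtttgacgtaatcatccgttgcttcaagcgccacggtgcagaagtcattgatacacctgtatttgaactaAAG
The lengths of the TARS2 and HARS exons are multiples of 3, so skipping keeps the reading frame, and those of the other 4 are not. The WARS2 exon ends in CAA and the AARS2 exon in CCC, while the others end in G, as did 168 of 216 coding member exons (77.8%).

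WARS2, CARS2 and TARS2 exons were skipped more in the first set. Exon 4 of WARS2, the mitochondrial tryptophan enzyme, had 18 and 6 skipping reads (first set) against 1 and 2 (second set), beside 280 and 180 against 182 and 244 inclusion reads. Its inclusion levels were 0.9079 and 0.9501 against 0.991 and 0.987, so the sets did not overlap. The authors' deposited table lists a difference of -0.06 with an FDR of 0.00122. Exon 5 of CARS2, the mitochondrial cysteine enzyme, had 11 and 1 skipping reads (first set) against 0 and 0 (second set). Inclusion levels were 0.837 and 0.980 against 1.000 and 1.000, with lower 95% bounds of 0.935 and 0.937 for the last pair. Nearly all of the skipping was in library 1 of the first set: the deposited difference of -0.092 (FDR 0.00333 in the authors' deposited table) was -0.0197 when recomputed without it.

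TARS2, the mitochondrial threonine enzyme, joins exons 7 to 10 in several ways. When exon 8 was the upstream flank, exon 9 had 10 and 8 skipping reads (first set) against 3 and 2 (second set). Its inclusion levels were 0.963 and 0.966 against 0.990 and 0.994, without overlap, and the deposited difference was -0.028 (authors' deposited table, FDR 0.0301). A far more frequent junction ran from exon 7 to exon 10 and left out exons 8 and 9 together. That junction had 96 and 89 reads (first set) against 85 and 115 (second set). With it as the skipping form, exon 9 had inclusion levels of 0.576, 0.574, 0.621 and 0.567, and exon 8 had 0.616, 0.646, 0.634 and 0.618. The sets overlapped for both, and the deposited differences were -0.019 and 0.005 with an FDR of 1.

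The other 3 exons were skipped more in the second set. Exon 6 of AARS2, the mitochondrial alanine enzyme, had inclusion levels of 0.961 and 0.949 (first set) against 0.912 and 0.870 (second set). Its skipping reads were 8 and 9 against 12 and 20, and the sets did not overlap (difference 0.064, FDR 0.0300, authors' deposited table). Exon 3 of HARS, the cytosolic histidine enzyme, had 4 and 0 skipping reads (first set) against 13 and 25 (second set), among 946 to 1236 junction reads. Its levels were 0.993 and 1.000 against 0.976 and 0.964, also without overlap, and the authors' deposited table lists a difference of 0.026 at FDR 0.00109. Exon 6 of NARS2, the mitochondrial asparagine enzyme, had 2 and 0 skipping reads (first set) against 9 and 1 (second set). Its levels were 0.967 and 1.000 against 0.815 and 0.984, so the sets overlapped. With other flanks the NARS2 exon had a deposited difference of -0.003 and the HARS exon, at a mean of 419.8 reads, an FDR of 1. The NARS2 difference of 0.084 (FDR 0.0250 in the authors' deposited table) came down to -6.0e-05 without library 1 of the second set.

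The largest difference outside WARS, 0.098, was in a 175-nt untranslated exon of HARS2, the mitochondrial histidine enzyme, where the authors' deposited table gives FDR 0.361. This exon had 0 and 3 skipping reads (first set) against 0 and 6 (second set), and its levels were 1.000 and 0.917 against 1.000 and 0.721, so the sets overlapped. It is a longer version, at a mean of 69 reads, of the coding 75-nt exon 2, with the same end and the same skipping reads. The 75-nt version, at a mean of 204 reads, had a mean level of 0.977 and a deposited difference of 0.023.

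The 20 exons with most reads in an alternative event came from 11 genes, 13 of them in mitochondrial enzymes, 6 in cytosolic enzymes and 1 in KARS. TARS2 exon 9 is among them through an event with a mean of 321.25 reads. Its event with most reads had a mean level of 0.978, so it is not 1 of the 32 alternative exons counted above. In 4 the sets did not overlap, against a background of 33.4% of alternative events, and 1, the AARS2 exon above, had an FDR under 0.05. Absolute differences ran from 0.005 to 0.064 with a median of 0.0205. The skipping junction of 13 of the 20 is annotated, and 9 have a length that keeps the frame.

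KARS joins lysine to its transfer RNA in both compartments, and the choice of its second exon sets which form is made. The 180-nt exon 2 of KARS-202 at chr16:75678181-75678360 (hg19, minus strand) adds the start of the mitochondrial form, and transcripts without it encode the cytosolic one. Its coding part of 146 bases is shown because it holds the start codon, in capitals, of the mitochondrial protein.
KARS exon 2, coding part: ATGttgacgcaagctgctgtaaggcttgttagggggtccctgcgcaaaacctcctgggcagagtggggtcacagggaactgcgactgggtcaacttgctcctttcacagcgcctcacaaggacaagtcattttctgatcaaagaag
Inclusion reads were 381 and 340 (first set) against 355 and 378 (second set), and skipping reads 641 and 564 against 501 and 621. Inclusion levels were 0.229 (95% interval 0.207 to 0.252) and 0.232 (first set) against 0.262 and 0.233 (second set). All 4 libraries thus lay within 0.04 of each other, with library 1 of the second set highest. The sets did not overlap, but the intervals of all 4 libraries did, and the deposited difference was -0.017 (authors' deposited table, FDR 1). A rare 83-nt exon in the same intron, exon 2 of KARS-210, had 2, 1, 1 and 20 inclusion reads, with the 20 in library 2 of the second set.

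Among the cytosolic enzymes, QARS, which charges glutamine and sits in the multi-synthetase complex, had 2 alternative exons. The 126-nt exon 23, next to the last, had inclusion levels of 0.886 and 0.890 (first set) against 0.881 and 0.904 (second set), at 1304 to 2281 junction reads. The 86-nt exon 9 had 0.934 and 0.945 against 0.928 and 0.963. The sets overlapped for both exons. VARS, the valine enzyme, skipped its 95-nt exon 13 at a like rate, with levels of 0.941, 0.927, 0.936 and 0.958. The differences of these 3 exons, -0.005, -0.006 and -0.013 in the authors' deposited table, were smaller than the spread within the second set.

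The mitochondrial valine gene VARS2 had 3 alternative exons. Its 128-nt exon 12 had inclusion levels of 0.724 and 0.708 (first set) against 0.736 and 0.757 (second set), which did not overlap (difference -0.03, FDR 1, authors' deposited table). The 153-nt exon 24 had 0.790 and 0.840 against 0.793 and 0.865, and the 112-nt exon 26 had 0.921 and 0.939 against 0.936 and 0.989. In both of these the highest value was from library 2 of the second set and the sets overlapped. The 99-nt exon 7 of HARS2 had levels of 0.774 and 0.797 (first set) against 0.761 and 0.726 (second set), without overlap. The authors' deposited table lists it with a difference of 0.042 at FDR 0.993.

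NARS2 has an exon of 27 bases, exon 13, which adds 9 codons without a shift of frame and is shown as the shortest of these exons, with its last 3 bases in capitals.
NARS2 exon 13, 27 nt, chr11:78152137-78152163 (hg19, minus strand): atcgggacttacagaagtctaccaATG
It was included at 0.901 and 0.860 (first set) against 0.874 and 0.945 (second set), with 10 to 28 skipping reads per library. The 133-nt exon 7 of the same gene had levels of 0.902, 0.933, 0.924 and 0.923. Neither exon separated the sets.

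The leucine enzyme of mitochondria, LARS2, showed spread within sets that was as wide as any difference between them. Its untranslated 66-nt exon 2 had levels of 0.962 and 0.903 (first set) against 0.951 and 0.852 (second set). Its 128-nt exon 21 had 0.917 and 0.982 against 0.911 and 0.960. In SARS2, the mitochondrial serine enzyme, exons 10 and 11 share 1 skipping junction with 20 and 12 reads (first set) against 10 and 14 (second set). Counted against that junction, exon 11 was included at 0.824 and 0.890 against 0.927 and 0.898, without overlap. The deposited difference was -0.056 (authors' deposited table, FDR 0.373). In its event with most reads, exon 11 had 3 skipping reads among 1509 and a mean level of 0.996, so it was not an alternative exon by the measure used here. CARS, the cytosolic cysteine enzyme, held 1 alternative exon, the coding 249-nt exon 2 of CARS-202, which most transcripts leave out, with levels of 0.157, 0.220, 0.146 and 0.208.

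**Figure D4:**
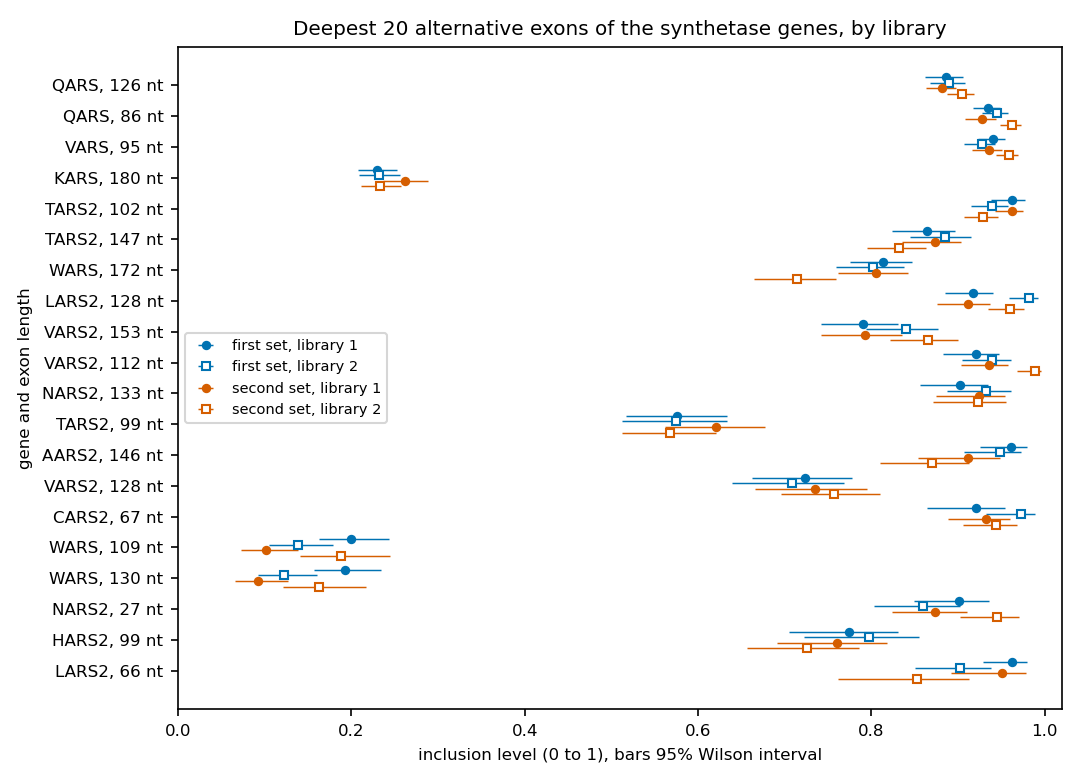
Inclusion level (horizontal axis, 0 to 1) per library of the 20 alternative exons with most reads in an alternative event, deepest at the top. Bars are 95% Wilson intervals from counting. Colours mark the sets, which overlap in 16 of the 20; KARS exon 2 lies between 0.229 and 0.262.

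Synthetase genes also held 31 exons, in 20 genes, with a mean inclusion level under 0.05 in the event with most reads. None had an FDR under 0.05 in that event. The 31 include the 85-nt WARS exon, whose event with the middle donor as flank was called above. GENCODE release 29 annotates all 31. A coding 49-nt exon of IARS had 42, 42, 49 and 19 inclusion reads and levels of 0.027 and 0.026 (first set) against 0.034 and 0.012 (second set). In MARS, the cytosolic methionine enzyme, a 20-nt exon had 3 inclusion reads among 5212. In CARS2 a 127-nt exon had 3 and 10 inclusion reads (first set) against 0 and 0 (second set), at skipping reads of 93 and 108 against 142 and 161. That exon did not overlap between the sets, and its FDR in the authors' deposited table was 0.0580.

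Junction reads were also summed per gene over its distinct exons, 1 event per exon, as a second readout. These sums cover only the exons listed as events (2 exons of SARS, 18 of VARS), so they are not whole gene counts. Of 35 member genes 13 (37.1%) passed limma's test at an adjusted p under 0.05, against 38.7% of 10909 genes, and 17 passed at an unadjusted p under 0.05 against 47.2% of all. After scaling by trimmed mean factors 12 members were called lower in the first set (34.3%, background 18%) and 1 higher (2.86%, background 20.7%). But without scaling factors 0 were called lower (background 3.3%) and 10 higher (28.6%, background 34.8%). The choice of scaling moved the median of all genes from 0.03 to 0.39 on the log2 scale. Relative to the median of all genes, the members' median was -0.20 under both, with 25 of 35 members below it. In bulk RNA, fewer reads of a gene per library cannot be told apart from more reads of other genes, nor fewer expressing cells from less RNA per cell.

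Values per gene are scaled junction reads in CPM. SARS, the cytosolic serine enzyme, had 80.3 and 84.8 (first set) against 125.8 and 131.4 (second set), a log2 difference of -0.64 ± 0.13 (SE, limma adjusted p = 0.000613). CARS2 had 38.96 and 45.6 against 62.8 and 67.5 (-0.63 ± 0.15, limma adjusted p = 0.00179). RARS, the arginine enzyme of the complex, had 342.8 and 365.8 against 467.5 and 535.1 (-0.50 ± 0.13, limma adjusted p = 0.00349). In each the sets were apart, and without scaling factors the differences were -0.28, -0.27 and -0.14 with limma adjusted p of 0.101, 0.178 and 0.356.

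The other 9 genes called lower after scaling were CARS, HARS, FARSB, QARS, SARS2, TARS2, YARS2, FARSA and VARS, with log2 differences of -0.51 to -0.35. Without scaling factors 8 of these 9 stayed below 0 and VARS was at 0.01, and none of them was called. FARSA and FARSB are the 2 subunits of the cytosolic phenylalanine enzyme and had -0.36 ± 0.13 and -0.41 ± 0.13 after scaling. LARS, the cytosolic leucine enzyme, was the exception. It had 386.2 and 335.3 CPM (first set) against 271 and 268.6 (second set), a log2 difference of 0.42 ± 0.13 after scaling (limma adjusted p = 0.0120) and 0.77 without scaling factors (limma adjusted p = 7e-05). Its direction and call held under both scalings, but it was not called when library 1 of the first set or either library of the second was left out. WARS, which held the called exons, was at 123.5 and 121.4 against 133.3 and 105.2, a log2 difference of 0.05 ± 0.14 after scaling (limma adjusted p = 0.808) and 0.41 without scaling factors (limma adjusted p = 0.0224), and its sets overlapped after scaling.

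These gene calls depended on single libraries. Leaving out library 1 of the first set gave 2 member calls in place of 13 (5.71%, against 16.9% of all genes). Leaving out either library of the second set gave 4 (11.4%, against 31.9% of all genes), and leaving out library 2 of the first set gave 12 (34.3%, against 37.2%). By compartment, 8 of 19 cytosolic and 4 of 14 mitochondrial genes were called lower after scaling, against 18% of all genes. Medians relative to all genes were -0.23 and -0.19 on the log2 scale, a gap smaller than the median standard error of a member gene.

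**Figure D5:**
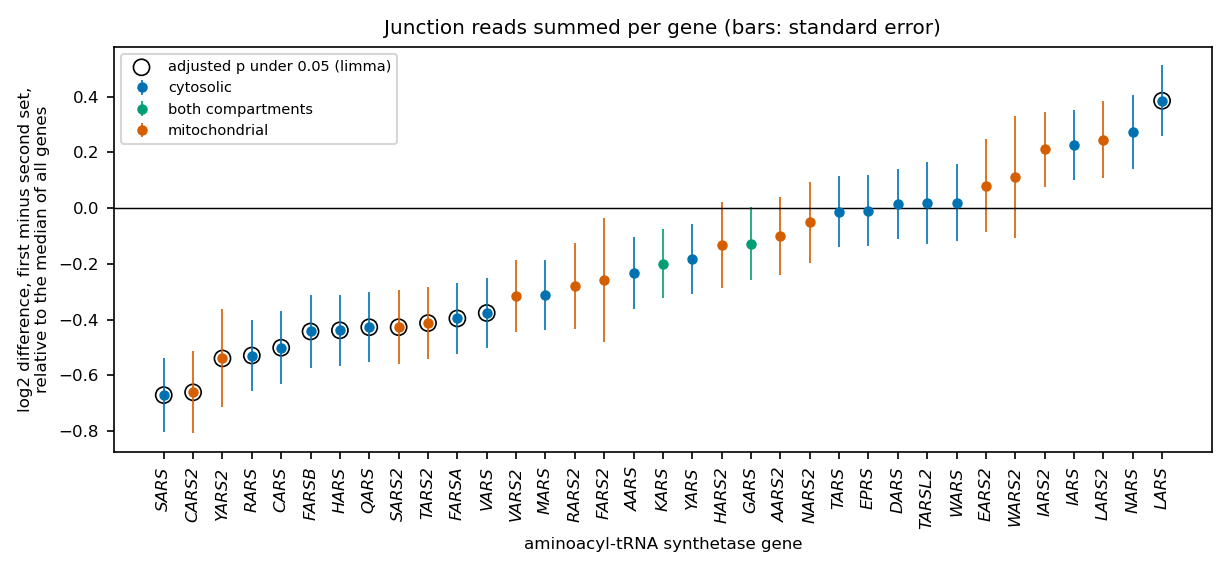
Log2 difference in junction reads per gene, first set minus second set, relative to the median of all genes (vertical axis), for the 35 member genes; bars are standard errors and rings mark limma adjusted p under 0.05. SARS is lowest and LARS highest; subtracting the median of all genes removes the shift between scalings.

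Other genes of the pathway were read from a list of 21 that covers scaffold proteins of the complex, further charging and editing enzymes and elongation factors. Of their 135 tested events 0 passed both thresholds in the authors' deposited table (background 2.71%) and 4 had an FDR under 0.05 (background 5.72%). One of these 4, chosen after its values were seen, was a 123-nt exon of MTFMT, which formylates the mitochondrial initiator methionyl-tRNA. Its levels were 0.958 and 0.947 (first set) against 0.991 and 1.000 (second set), so the sets did not overlap. By junction reads per gene 11 of the 18 listed genes (61.1%) passed limma's test after scaling, against 38.7% of all genes. Of these 11, 10 were lower in the first set (background 18%) and 1 higher (background 20.7%). Lower ones included EEF1B2 (-0.66 ± 0.13, limma adjusted p = 0.000461), a subunit of the elongation factor that reloads EEF1A1 with GTP, and EEF1A1 itself (-0.42 ± 0.13, limma adjusted p = 0.0153), which carries charged transfer RNA to the ribosome. AIMP2 and EEF1E1, scaffold proteins of the complex, were at -0.39 and -0.43 after scaling. Without scaling factors AARSD1 (-0.39), EEF1B2 (-0.30) and EEF1D (-0.30) were still called lower by limma (background 3.3%), and the other 7 of the 10 were not.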

How the data were processed

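The deposited table has, per the file headers, the layout of rMATS for skipped exons counted on junction reads. It holds read counts for inclusion and skipping and, as a fraction, the authors' inclusion level per library. It also holds the deposited score for the difference, first set minus second set, between -1 and 1, and the authors' p-value and FDR. Reads were trimmed with cutadapt and aligned with STAR to hg19, per the submitters' processing notes; their versions, that of rMATS and the annotation are not given in the sources used here. Reads were 150 bases long, from poly(A) RNA, per the labels' protocols.

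Inclusion levels recomputed here from the deposited counts differed by at most 0.0005, the rounding. Events with a mean of at least 20 reads were tested. A quasi-binomial model per event on inclusion and skipping reads had its dispersion moderated by limma 3.58.1 (R 4.3.3) and never under 1. A planned offset for the form lengths was not included in it. A trend of that dispersion with depth was added after seeing the data, because the model without it made false calls on simulated data. limma on the log2 ratio used a pseudocount of 0.5. Reads per gene (at least 10 in at least 2 libraries) were tested with limma voom and trimmed mean factors; a negative binomial test had been planned, but the paired count cells of the table led to limma instead. All adjustments were Benjamini-Hochberg over all events or genes. Exons were matched to GENCODE release 29 (GRCh38) by their spacing within the gene for 343 of 345 events, and no position was converted. Reads that overlap near-identical copies cannot be separated in these counts.

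Events named were those called by the deposited FDR or by the quasi-binomial model, the 20 deepest alternative exons and the 5 largest differences with a p-value under 0.05; others are said to be chosen after their values were seen, including the CARS, SARS2, HARS2 and rarely included exons. Genes named by reads were those called. The members, lists and rules were chosen with earlier results of these data known. The values of 1 gene of the pathway list are not reported here.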

Additional observations from a re-analysis of the deposited data

How the results depend on the processing

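The count of 2 called synthetase events stayed at 2 with an FDR under 0.01, with adjustment over the tested events only and with non-overlap required, and was 3 at a minimum of 10 reads. It was 0 at a minimum of 50 reads and 0 with 1 event per exon, 8 at a difference of 0.05, 1 at 0.2, and 4 without correction for form lengths. With 1 library left out, only the 2 called events were checked, for sign and a difference of at least 0.1. The FDR was not recomputed and no other event could enter. Both events held, except that the 85-nt WARS exon fell to -0.0477 without library 2 of the second set. The quasi-binomial count of 0 stayed 0 without the depth trend, with the other read minimums, with alternative events only and by unweighted limma, and was 2 by limma with precision weights. Once 1 library is dropped, its set has 1 library, so scatter can come only from the other set. For the CARS2 and DARS events below, that other set had 0 and 0 reads of 1 form, so it held no scatter. The same was true of the GARS, FARSA, KARS and MARS events called without second set library 1. Those calls therefore do not have the scatter between libraries as their error. Leaving out 1 library gave 1 to 6 calls: 1 CARS2 exon without first set library 1 (0.479% of all events called), another CARS2 exon without first set library 2 (0.587%), 6 events without second set library 1 (2.87%), and 4 (0.339%, 2 of DARS, whose 10 skipping reads were all in second set library 1, and 2 of VARS) without second set library 2. The 13 genes called by junction reads were 13 with median-of-ratios factors, without a low count filter and over all events, 10 without scaling factors, and 2 to 12 with 1 library left out. The members' median log2 difference of -0.17 reversed to 0.19 without scaling factors, and the NARS2 exon of 95 nt had 0.084 and ranged from -5.99994e-05, reversed, without second set library 1 to 0.168 without second set library 2. The cause was not tested. No paired analysis was possible because the columns carry no replicate numbers. The planned Wald test was not run. The called WARS events rest on means of 27.5 and 49 reads per library.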
